A study of Mus musculus with 9 samples.

Results

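The comparison described here sets mouse embryonic fibroblasts given 4-hydroxytamoxifen (4-OHT) to delete Carm1 against untreated fibroblasts of the same genotype, across all genes with enough reads. It takes 6 of the 9 RNA libraries of the series and 14560 of the 16428 genes in the deposited table, namely those with a mean of at least 10 normalized reads over the 9 libraries. All cells carry the genotype CARM1f/f ER-Cre, that is, loxP sites in Carm1 and a Cre recombinase fused to a hormone-binding domain of the estrogen receptor, which 4-OHT switches on. The 3 libraries labelled WT came from cells with no treatment, and the 3 labelled KO from cells kept for 6 days in 2 uM 4-OHT. A further 3 libraries, labelled CARM1i, came from the same genotype given 1 uM TP-064, a CARM1 inhibitor, for 6 days, and are used here only where they show how the deletion differs. Every group grew in RPMI medium on 10 cm plates. WT therefore means an intact floxed gene in cells that also hold the inactive recombinase. No group had 4-OHT without a floxed gene and none is labelled as vehicle, so the drug and the deletion cannot be told apart. Nothing in the labels says whether replicates were separate cultures or which embryos they came from, so the p-values speak only to library-to-library spread, part or all of which may be technical.

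CARM1 transfers methyl groups to arginine residues of histone H3 and of many proteins that regulate transcription and splicing, among them the acetyltransferase CBP and subunits of chromatin remodelling complexes. It is known as a coactivator of nuclear hormone receptors, NF-kappaB and other factors, and works beside the p160 coactivators that such receptors recruit. Embryonic fibroblasts are connective tissue cells that divide in culture and secrete collagen-rich matrix.

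The 9 libraries held 28657018 to 35842771 reads each, recovered from the deposited values. The first principal component of all log values, with 42.7% of the variance, separated the untreated libraries (-25.4 to -22.0) from the 4-OHT libraries (25.2 to 27.6), and the inhibitor libraries lay between them (-5.84 to 2.27), with CARM1i replicate 3 nearest to the 4-OHT libraries. Of 10 fibroblast markers tested, 7 were lower and 1 was higher after 4-OHT, beside 20.5% and 21.4% of all genes. The summed level of the 10 was 256539 to 265960 normalized counts in untreated and 190101 to 201836 in 4-OHT libraries. Markers of other cell types summed to far less, with summed levels of 253 to 318 and 292 to 334 for the 4 macrophage markers tested, 389 to 444 and 461 to 514 for 4 endothelial markers, and 42.2 to 72.4 and 103 to 145 for 2 epithelial markers. The ranges of 3 neural markers were 749 to 852 and 450 to 478, of 1 skeletal muscle marker 142 to 159 and 205 to 251, of 1 cartilage marker 549 to 645 and 659 to 805, and of 2 adipocyte markers 121 to 140 and 151 to 182. The macrophage ranges overlapped and the others named here did not, the fibroblast and neural sums being lower and the rest higher after 4-OHT. Of the defining leukocyte genes, Ptprc, Adgre1 and Itgam were not among the genes tested, nor was any lymphoid, mast cell or erythroid marker. Their part in the results was not tested. In such bulk samples, fewer cells of a type and less RNA per cell cannot be told apart.

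Carm1 itself (ENSMUSG00000032185.15; mm10, chromosome 9, 21546894 to 21592623, plus strand) measured 1079, 1143 and 1091 normalized reads in the untreated libraries and 794, 711 and 770 in the 4-OHT libraries. The groups did not overlap, and the log2 fold change was -0.54 ± 0.06 (SE; limma, adjusted p = 5.493e-07). The count covers the whole gene and does not separate the floxed exons, so it does not measure how complete the deletion was. Per kilobase of annotated exon, Carm1 went from 228 to 156 normalized reads. In untreated cells Prmt7 (192), Prmt6 (175) and Prmt9 (125) of its enzyme family stood below it, and Prmt2 (349) and Prmt3 (301) above. Prmt1, which makes most asymmetric dimethylarginine, stood at 1102 per kilobase in untreated cells, and Prmt5, the main symmetric enzyme, at 441.

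Nearby genes were read as well, since the deletion lies among them. Yipf2, a Golgi protein gene on the opposite strand whose annotated end overlaps that of Carm1, measured 323, 333 and 318 in untreated, 453, 432 and 423 in 4-OHT and 330, 318 and 323 in inhibitor libraries. It was higher in the 4-OHT libraries, by 0.42 ± 0.07 on the log2 scale against WT (adjusted p = 0.0001381) and by 0.43 against CARM1i (adjusted p = 0.0003179). The kit marks strand, but the strand setting of the counting is not given in the sources used here, so reads of the overlapping ends may not be separable. Timm29, whose body lies 99 bases beyond Carm1, rose by 0.20 ± 0.05, and Dnm2, the dynamin gene 39135 bases before it, by 0.15 ± 0.04. Smarca4, the remodeller ATPase gene 23546 bases beyond, did not pass (0.05 ± 0.03, adjusted p = 0.1458).

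After 4-OHT, 6100 of the 14560 genes passed an adjusted p of 0.05, which is 41.9% of genes tested, with 3114 higher (21.4%) and 2986 lower (20.5%). The untreated and 4-OHT libraries did not overlap for 7665 genes (52.6%). Most changes were small. Among called genes the median size was 0.32 on the log2 scale, 1609 of the higher and 1480 of the lower genes changed by less than 1.25-fold, and 1436 genes (9.86%) changed by at least 1.5-fold, 626 higher (4.3%) and 810 lower (5.56%). Of the 32 called genes that changed at least 4-fold, 12 were higher and 20 lower. In reads, the called higher genes gained 7.32% of the untreated total and in the called lower genes the sum changed by -6.01% of it.

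**Figure D1:**
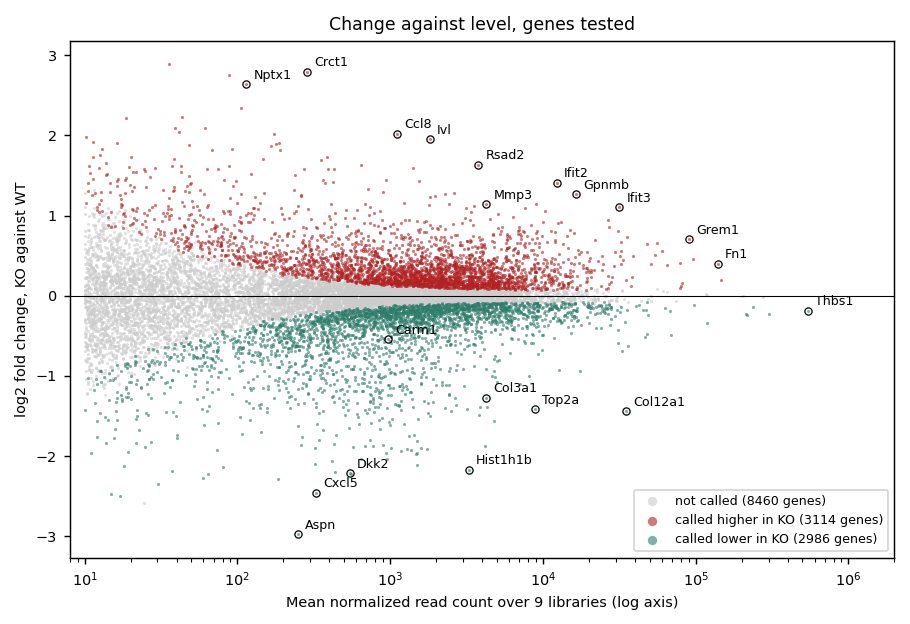
Each point is a gene, with its mean normalized read count over the 9 libraries on a log axis and its log2 fold change between the 3 KO and the 3 WT libraries. Red and green points are the 3114 genes called higher and the 2986 called lower, grey points are genes that did not pass, and 20 genes of the text are circled. The largest changes fall on genes of low or middle level, while Fn1, Grem1 and Col12a1 changed among the most abundant.

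Genes of the epidermal differentiation complex on chromosome 3 were among the largest rises. Crct1 measured 83.6, 78.3 and 77.0 normalized reads in untreated and 582, 534 and 561 in 4-OHT libraries (log2 fold change 2.80 ± 0.10). Ivl, which encodes involucrin, a scaffold of the cornified envelope of skin, measured 792, 773 and 820 and then 2958, 3128 and 3177 (1.96 ± 0.04). In neither gene did the groups come near each other.

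Lce1g, another cornified envelope gene of the same complex, went from 77.5, 81.2 and 64.2 to 262, 208 and 266 (1.71 ± 0.21). S100a8, a calcium-binding alarmin encoded nearby, went from 93.9, 87.1 and 92.0 to 309, 310 and 352 (1.82 ± 0.13). Of the 15 epidermal and keratin genes tested, 7 rose and 1 fell, beside 21.4% and 20.5% of all genes. The keratin gene Krt18 rose from 23.3, 48.0 and 42.8 to 91.8, 118 and 126, whereas Krt19 (-0.51 ± 0.33) did not pass. The keratinocyte genes Krt5, Krt14, Krt1 and Trp63, which define that cell type, were not among the genes tested.

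The promoter of Ivl is shown because it pairs an AP-1 element (TGANTCA) with a TATA box (TATAAA), both of which are in capitals. It is the RefSeq window of GRCm38.p6 from 250 bases before to 50 after the start, at chr3:92573686-92573985 on the minus strand, written 5′ to 3′.
Ivl: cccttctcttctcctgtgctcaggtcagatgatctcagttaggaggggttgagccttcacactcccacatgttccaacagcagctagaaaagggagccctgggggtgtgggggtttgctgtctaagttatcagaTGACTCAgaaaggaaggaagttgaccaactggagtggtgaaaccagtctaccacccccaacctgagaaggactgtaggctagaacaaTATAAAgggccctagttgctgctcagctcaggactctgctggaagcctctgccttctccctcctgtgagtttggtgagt
The AP-1 element begins at base 135 of the window and the TATA box at base 222.

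Other large rises came from genes of unrelated function. Nptx1, a synaptic pentraxin, went from 42.2, 28.4 and 34.2 to 192, 223 and 248 (2.64 ± 0.25). Syngr1, a synaptic vesicle protein gene, went from 175, 177 and 184 to 580, 581 and 585 (1.70 ± 0.08), with the 4-OHT values nearly equal. Hsd11b1, which regenerates active glucocorticoid, rose 4.07-fold.

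Bdkrb2, the bradykinin receptor gene, rose from 213, 254 and 216 to 658, 708 and 672, and Pappa2, a protease of IGF-binding proteins, from 174, 221 and 192 to 478, 642 and 654. The leukocyte integrin chains Itgb2 (74.1, 55.8 and 84.5 to 234, 285 and 260) and Itgb7 (132, 121 and 165 to 342, 473 and 449) rose as well. Both are leukocyte genes. Of the 4 macrophage markers tested, Cd68 rose (0.98), Cd14 fell (-0.43) and the other two did not pass, and their part in these rises was not tested. Cd14 lost its call when WT replicate 2, KO replicate 2 or KO replicate 3 was left out, with adjusted p from 0.08179 to 0.1068. Acod1, which makes itaconate in activated macrophages, went from 33.6, 35.2 and 54.5 to 206, 205 and 210.

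Among called genes with a mean of at least 100, groups that did not overlap and no predicted name, the 6 largest gains in mean normalized reads came from genes of unlike function. Grem1, a secreted BMP antagonist, went from 63545, 61659 and 72290 to 107422, 107059 and 106485. Fn1, fibronectin, went from 122520, 122285 and 123153 to 165476, 158325 and 161237, and Il1rl1, the IL-33 receptor, from a mean of 78838 to 108085. Psap, the precursor of the lysosomal saposins, went from 43575 to 68895. Ifit3, an interferon-induced gene, went from 20648 to 44413 and Rnf213, a large ubiquitin ligase gene, from 48451 to 71297.

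**Figure D2:**
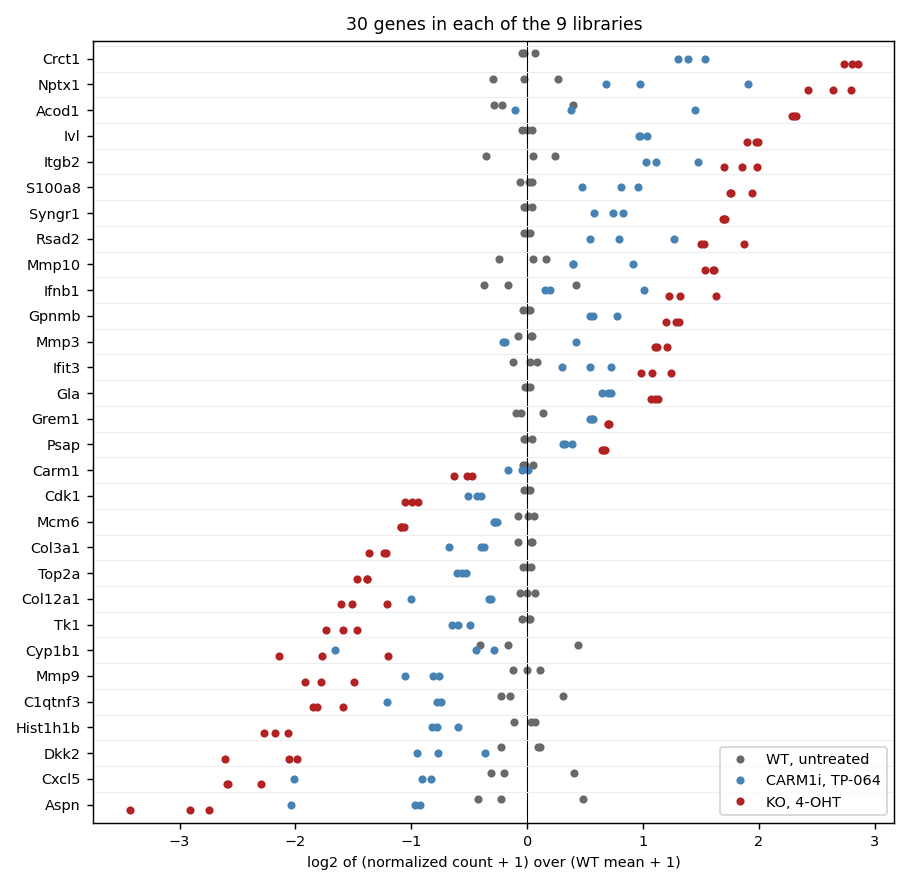
Each point is 1 library, placed by the log2 of its normalized count plus 1 over the WT mean plus 1, for 30 genes ordered by their change. Grey points are WT, red points KO and blue points CARM1i libraries. In all 30 genes the red points lie apart from the grey ones, as they do for 52.6% of genes tested. Genes ranked by the size of their change were picked only among such genes.

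Replication-dependent histone genes, which supply histones during DNA synthesis, made up 17 of the 20 largest falls among genes with a mean of at least 100, groups that did not overlap and a name that is not that of a predicted model. Of 59 such genes tested, 54 were lower and 1 was higher, beside 20.5% and 21.4% of all genes. The median log2 fold change of the 59 was -1.76, and 49 of them sit on chromosome 13. Hist1h1b, a linker histone gene, went from 5626, 5509 and 4977 to 1283, 1113 and 1188 (-2.17 ± 0.06). Hist1h3c went from 2432, 2368 and 2150 to 603, 571 and 591, and Hist4h4 on chromosome 6 from 2304, 2204 and 2034 to 589, 544 and 586, so the falls were not limited to the chromosome 13 cluster. These genes are near-identical copies and most of their transcripts lack a poly(A) tail, so single values from a poly(A) library are uncertain.

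With the histone genes left out, a choice made after their values were seen, the 20 largest falls under the same conditions held many genes of replication and mitosis, among them Ska1, Fbxo5, Tk1, Fam83d, Kif15, Pclaf, Nuf2, Depdc1b, Ccna2, Mki67 and Mybl2. Ska1, of the spindle attachment complex, went from 223, 203 and 203 to 48.6, 72.6 and 73.5 (-1.70 ± 0.15). Others in the same rank were secreted or signalling genes. Aspn, asporin, a small proteoglycan that binds collagen and TGF-beta, went from 359, 413 and 677 to 71.3, 63.5 and 43.9 (-2.97 ± 0.26). Cxcl5, a neutrophil chemokine, went from 528, 487 and 800 to 122, 99.8 and 100.2, and Dkk2, a Wnt antagonist, from 948, 960 and 759 to 145, 213 and 224. Untreated values of Aspn and Cxcl5 spread widely, with replicate 3 highest in both, yet every 4-OHT value lay far below the lowest of them.

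C1qtnf3, a secreted C1q-like protein, fell from 624, 657 and 906 to 206, 202 and 242. The gelatinase gene Mmp9 fell from 190, 175 and 162 to 61.6, 50.4 and 45.8, and Rgs4, which damps G-protein signalling, from 681, 819 and 1119 to 323, 285 and 290. Cyp1b1, a steroid hydroxylase gene, fell from 994, 1174 and 1788 to 573, 298 and 385. Vip, a neuropeptide gene, fell from 346, 413 and 364 to 129, 122 and 113, and its chromosomal neighbour Fbxo5, an inhibitor of the anaphase-promoting complex, from 1538, 1534 and 1383 to 544, 460 and 451.

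The 6 largest losses in mean normalized reads, under the same conditions, were those of Thbs1, Tnc, Actb, Col12a1, Flna and Rn7sk. Thbs1, thrombospondin 1, went from 561429, 543576 and 593180 to 532225, 472154 and 491339 (-0.18 ± 0.06, adjusted p = 0.01948). Rn7sk, a small nuclear RNA that a poly(A) kit samples poorly, went from a mean of 251403 to 228188 (-0.14 ± 0.04). The call of Thbs1 ended without WT replicate 3, KO replicate 2 or KO replicate 3 (adjusted p from 0.07524 to 0.1095), with no intensity trend (0.1015) and in DESeq2 (0.05341). Thbs1 had the highest value in every library. Quantile normalization gives that rank the same value in all libraries, so it cannot test this gene. That of Rn7sk ended without WT replicate 2 (-0.11, adjusted p = 0.07656), and its sign turned after quantile normalization (0.03, adjusted p = 0.4519). Col12a1, a collagen that lines fibrils, had the largest relative fall of the 6, from 50963, 48775 and 53428 to 22102, 16810 and 17908 (-1.44 ± 0.13). Tnc, tenascin C, went from a mean of 321253 to 275199 (-0.22 ± 0.04), Flna, filamin A, from 132940 to 104806 (-0.34 ± 0.03) and Actb from 229315 to 195829 (-0.23 ± 0.04). The call of Actb ended under quantile normalization (-0.06, adjusted p = 0.2883). That setting nearly fixes values at the top ranks, so it says little about Actb and Rn7sk, which are among the most abundant genes.

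**Figure D3:**
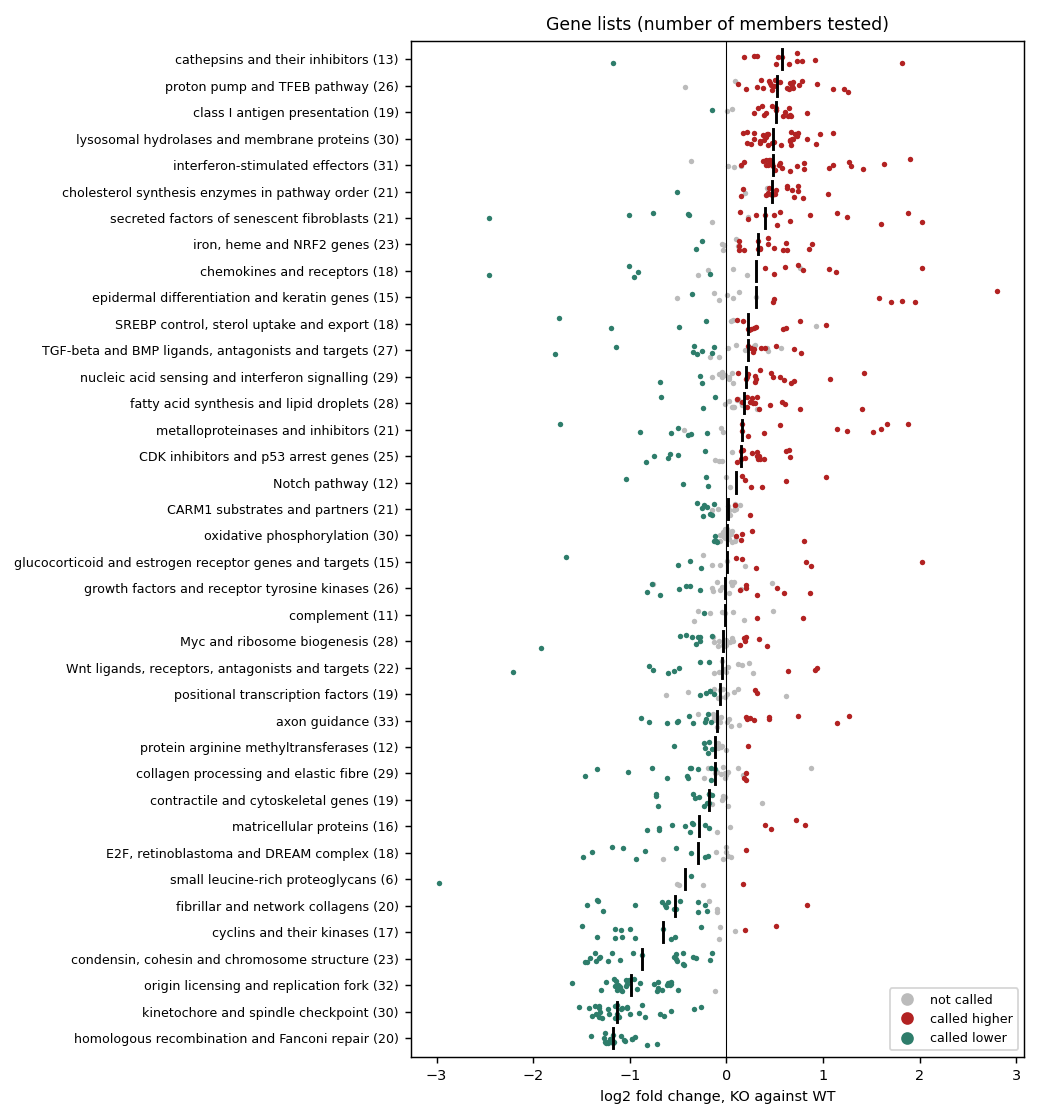
Each row is a gene list, with the number of members tested, ordered by the median log2 fold change (black bar) of KO against WT. Points are single genes, red when called higher, green when called lower and grey when they did not pass. Lists of chromosome duplication and repair lie wholly below 0, and lists of lysosomal and antigen presentation genes lie almost wholly above it.

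Genes that copy and segregate chromosomes fell nearly without exception. Of 32 genes that license origins or work at replication forks, 31 were lower and none was higher, with a median of -0.98, beside 20.5% and -0.0043 over all genes tested. The exception was Cdt1 (1221 to 1127, -0.11, not called), which passed without WT replicate 3 (-0.18, adjusted p = 0.01448). Tk1, thymidine kinase, went from 1807, 1884 and 1891 to 670, 558 and 617 (-1.60 ± 0.06), and Prim1, a primase subunit, from 1152, 1087 and 977 to 447, 467 and 392. Mcm6 of the replicative helicase went from 6777, 6538 and 6165 to 3115, 3051 and 3061.

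All 20 genes of homologous recombination and the Fanconi pathway were lower, beside 20.5% of all genes. Their median was -1.18 and their range was from -1.40 to -0.72. Fancb fell from 334, 296 and 293 to 114, 121 and 113 and Brca2 from a mean of 1183 to 522. These repair genes, which act mostly on replicating DNA, had the same direction in every member.

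All 30 kinetochore and spindle checkpoint genes were lower (median -1.13), beside 20.5% of all genes. Nuf2, of the microtubule-binding complex, went from 1386, 1295 and 1257 to 485, 469 and 417, and Aurkb, the kinase that corrects attachments, from 1050, 957 and 1034 to 387, 361 and 384. The smallest fall was that of Bub3 (4510 to 3756, -0.26 ± 0.03). All 23 condensin, cohesin and chromosome structure genes were lower too, beside the same 20.5%, but in unequal measure. The condensin gene Ncapd2 fell by 1.44 ± 0.04 and the cohesin acetyltransferase gene Esco2 by 1.46 ± 0.09, while the core cohesin genes Smc1a, Smc3 and Rad21, which cells also use outside mitosis, fell by 0.45, 0.44 and 0.52. Lamin B1 (Lmnb1) fell from 1695, 1692 and 1492 to 671, 612 and 671 and lamin A (Lmna) by 0.15.

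Regulators of the cycle moved in both directions. Of 17 cyclins and their kinases, 12 fell and 2 rose (median -0.65), which is 82.4% called beside 41.9% of all genes. The 2 that rose were the growth-factor-driven cyclins Ccnd2 (6569, 6699 and 6997 to 9920, 9651 and 9306) and Ccnd1 (12096, 11840 and 11708 to 13324, 13722 and 13811). The call of Ccnd1 (0.20, adjusted p = 0.04142) ended when any single untreated or 4-OHT library was left out, with adjusted p from 0.06299 to 0.1143, and also after quantile normalization (0.09458), at a common total (0.05955), with no intensity trend (0.1961) and in DESeq2 (0.202). Cdk1, the mitotic kinase, went from 6264, 6348 and 6105 to 3246, 3012 and 3127, and Ccne2, of S phase entry, from 889, 973 and 803 to 397, 445 and 413.

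Among E2F and retinoblastoma genes, 10 of 18 fell and 1 rose, which is 61.1% called beside 41.9% of all genes. The repressors E2f7 (511, 513 and 394 to 176, 168 and 191) and E2f8, the pocket protein gene Rbl1, and the mitotic activators Mybl2 (-1.48 ± 0.09) and Foxm1 (-0.94 ± 0.05) fell. E2f1 was at 902, 871 and 894 against 899, 853 and 911, and Rb1 (0.05) did not pass. Rbl2, a pocket protein of quiescent cells, rose by 0.20, a call that ended without WT replicate 1 (0.17, adjusted p = 0.05424) or KO replicate 3 (0.13, adjusted p = 0.08594), and in the fit with no intensity trend (adjusted p = 0.06187).

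Of 25 CDK inhibitors and p53 arrest genes, 15 rose and 6 fell (median 0.16), which is 84% called beside 41.9% of all genes. Cdkn1a, p21, rose from 3394, 3124 and 3258 to 4156, 4165 and 4108 (0.35 ± 0.05) and Cdkn2a from 1921, 1993 and 1871 to 2564, 2257 and 2370 (0.31 ± 0.05), small changes beside the falls above. Mdm2 and Trp53inp1, p53 targets, rose by 0.65 and 0.66. Cdkn1b, p27, instead fell from 1196, 1199 and 1160 to 634, 665 and 694, and Cdkn2c by 0.75. Of 21 secreted factors known from senescent fibroblasts, 14 rose and 5 fell (90.5% called). Mmp3 (3097, 2865 and 3109 to 6583, 6480 and 6962), Igfbp3 (298, 302 and 342 to 526, 611 and 577) and Vegfa rose, Il6 did not pass (201 to 235, 0.23) and the chemokine genes Cxcl1 and Cxcl5 fell.

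The promoters of 4 genes that fell are printed because they carry elements read by the complexes that time expression in the cell cycle. Top2a and Cdk1 hold the cell cycle homology region (TTTGAA) and the CCAAT box. Mcm6 holds an E2F element (TTTGGCGC) with CCAAT boxes, and Hist1h1b holds CCAAT boxes. The TATA box of Hist1h1b, also marked, is a core promoter element and not one of these. Matches on either strand are in capitals. The windows are chr11:99024140-99024439, chr10:69352863-69353162, chr1:128359656-128359955 and chr13:21780576-21780875, all on the minus strand of GRCm38.p6, from RefSeq.
Top2a: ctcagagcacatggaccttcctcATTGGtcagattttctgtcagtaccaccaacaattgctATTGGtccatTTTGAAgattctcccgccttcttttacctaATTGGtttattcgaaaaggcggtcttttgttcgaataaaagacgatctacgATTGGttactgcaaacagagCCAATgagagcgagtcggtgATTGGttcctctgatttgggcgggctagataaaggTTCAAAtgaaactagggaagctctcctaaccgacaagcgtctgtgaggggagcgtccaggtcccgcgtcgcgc
Cdk1: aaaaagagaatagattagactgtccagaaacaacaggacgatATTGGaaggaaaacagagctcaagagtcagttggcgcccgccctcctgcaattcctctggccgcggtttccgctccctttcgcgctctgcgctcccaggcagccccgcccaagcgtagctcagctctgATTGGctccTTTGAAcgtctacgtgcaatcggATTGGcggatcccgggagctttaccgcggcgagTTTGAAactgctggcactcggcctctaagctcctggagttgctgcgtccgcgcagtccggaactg
Mcm6: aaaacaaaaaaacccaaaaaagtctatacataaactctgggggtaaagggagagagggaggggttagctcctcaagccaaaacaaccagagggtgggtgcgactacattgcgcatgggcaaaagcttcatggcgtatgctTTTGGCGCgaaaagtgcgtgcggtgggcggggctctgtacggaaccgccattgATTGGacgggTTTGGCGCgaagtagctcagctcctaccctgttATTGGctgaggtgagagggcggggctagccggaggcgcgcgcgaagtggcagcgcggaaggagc
Hist1h1b: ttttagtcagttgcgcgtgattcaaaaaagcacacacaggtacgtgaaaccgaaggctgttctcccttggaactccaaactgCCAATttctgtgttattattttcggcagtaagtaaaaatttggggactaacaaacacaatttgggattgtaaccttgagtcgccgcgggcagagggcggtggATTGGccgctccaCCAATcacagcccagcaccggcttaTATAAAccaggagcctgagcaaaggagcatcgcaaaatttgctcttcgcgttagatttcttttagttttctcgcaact
Top2a holds 6 CCAAT boxes and 2 homology elements, Cdk1 3 and 2, Mcm6 2 E2F elements and 2 CCAAT boxes, and Hist1h1b 3 CCAAT boxes and 1 TATA box.

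Interferon-stimulated genes rose together. Of 31 effectors, 27 rose and none fell (median 0.48, beside 21.4% and 20.5% of all genes), and their summed level was 173914 to 188329 normalized counts in untreated and 280162 to 307169 in 4-OHT libraries. Ifit3, whose product binds viral RNA with its partners, went from 18996, 21006 and 21943 to 40917, 48695 and 43627. Rsad2, viperin, went from 1866, 1891 and 1933 to 5475, 6924 and 5368 (1.63 ± 0.12) and Ifit2 from 7056, 7385 and 7097 to 18188, 20861 and 18382. Among the 4 that did not pass were Ifitm1 (-0.36), Trim25 (0.08) and Oas1b (0.16).

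The signal and its sensors moved in part. Ifnb1, interferon beta itself, rose from 50.8, 44.0 and 77.0 to 179, 135 and 144 (1.43 ± 0.23, adjusted p = 7.004e-05), and stood at 65.8, 63.9 and 116 with the inhibitor. Of 29 sensing and signalling genes, 16 rose and 3 fell, which is 65.5% called beside 41.9% of all genes. The RNA sensors Tlr3 (363, 309 and 361 to 688, 826 and 672) and Ifih1 (4612, 4395 and 4655 to 7196, 7906 and 7186) rose, and so did the factor Irf7 (0.46 ± 0.05). Cgas, the sensor of cytosolic DNA, fell from 505, 441 and 435 to 306, 294 and 257, and the receptor genes Ifnar1 (-0.05) and Ifnar2 (-0.08) and the kinase gene Tbk1 (-0.04) did not pass.

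Class I antigen presentation rose across its steps, in 16 of 19 genes with 1 lower (median 0.51). Among all genes tested, 21.4% were higher and 20.5% lower. B2m went from 44986, 43546 and 45090 to 61320, 65535 and 63848, and the heavy chain gene H2-K1 from 5893, 6153 and 6276 to 9371, 9469 and 8993. The immunoproteasome genes Psmb8, Psmb9 and Psmb10 rose by 0.67, 0.84 and 0.64 and the peptide transporter genes Tap1 and Tap2 by 0.52 and 0.59. The 1 lower gene was Calr, a general chaperone of the endoplasmic reticulum, which fell by 0.15.

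Chemokines went both ways, with 8 of 18 higher and 5 lower (72.2% called). Ccl8, an attractant of monocytes, rose 4.06-fold, Cxcl10, an interferon target, from 1203, 1175 and 1267 to 2636, 3098 and 2332 and Ccl5 from 302, 284 and 327 to 443, 669 and 499. The neutrophil attractants Cxcl1 (1062 to 529) and Cxcl5 and the stem cell chemokine Cxcl12 (5423, 5264 and 6481 to 3335, 2843 and 2937) fell. Of 11 complement genes 2 rose and 1 fell, a share of 27.3% called against the background of 41.9%.

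The interferon response element (core GAAANNGAA) is in capitals in the windows of Ifit3 at chr19:34583279-34583578 (plus strand) and Rsad2 at chr12:26456403-26456702 (minus strand), shown as examples of the element that 66.7% of the 27 matched windows of interferon effectors hold, beside 7.16% of windows of tested genes.
Ifit3: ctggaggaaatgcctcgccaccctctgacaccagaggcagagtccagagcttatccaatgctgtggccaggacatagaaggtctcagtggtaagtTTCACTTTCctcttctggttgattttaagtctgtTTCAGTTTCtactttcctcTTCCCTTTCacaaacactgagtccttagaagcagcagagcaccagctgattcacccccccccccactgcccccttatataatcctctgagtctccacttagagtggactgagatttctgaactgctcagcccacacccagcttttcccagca
Rsad2: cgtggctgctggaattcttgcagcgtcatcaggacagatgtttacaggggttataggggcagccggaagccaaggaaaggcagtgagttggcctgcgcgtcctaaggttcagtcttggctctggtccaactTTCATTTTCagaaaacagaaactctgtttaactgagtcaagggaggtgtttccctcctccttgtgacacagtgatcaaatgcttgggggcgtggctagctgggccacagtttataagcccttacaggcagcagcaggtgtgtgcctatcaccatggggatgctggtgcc
Ifit3 has 3 matches, which begin between bases 96 and 149 of the window, and Rsad2 has 1 at base 132.

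Lysosomal genes rose together. All 30 hydrolase and membrane protein genes tested were higher, beside 21.4% of all genes. Their changes ran from 0.17 (Manba) to 1.10 (Gla), with a median of 0.48. The call of Manba (adjusted p = 0.04655) ended when any single untreated library, KO replicate 1 or KO replicate 3 was left out, with adjusted p from 0.0718 to 0.1631, and also at a common total (0.07186), with no intensity trend (0.05932), in DESeq2 (0.07567) and with the replicate block (0.06776). Gla, alpha-galactosidase, went from 4769, 4725 and 4860 to 10044, 10441 and 10305, Hexa of ganglioside breakdown from 6680, 6619 and 7087 to 12662, 13190 and 12794, and the membrane protein gene Lamp1 from 25151, 25281 and 26039 to 40889, 40442 and 40351. Values within a group lay close together, and the groups did not overlap. The summed level of the list was 190176 to 198586 normalized counts in untreated and 293158 to 294312 in 4-OHT libraries.

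Of 13 cathepsins and cystatins, 12 rose and 1 fell, beside 21.4% and 20.5% of all genes. The cysteine protease gene Ctsl went from 38794, 38167 and 37958 to 59213, 60737 and 59565, and Cst6, cystatin M, had the largest rise of the list, from 31.9, 30.3 and 37.4 to 106, 149 and 107. The exception was Ctsc, an activator of leukocyte serine proteases, which fell from 440, 436 and 536 to 229, 180 and 216.

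The proton pump that acidifies lysosomes rose with them, in all 16 subunit and accessory genes tested, from 0.20 (Atp6v0a2) to 0.94 (Atp6v0a1, 1234, 1254 and 1157 to 2324, 2280 and 2364). Of the 10 other genes of the TFEB pathway, 8 rose and none fell. Of all genes tested, 21.4% were higher and 20.5% lower. Gpnmb, a target of the MiT factors, went from 10088, 9753 and 10183 to 22971, 24799 and 24386, and Rragd, a RagGTPase, from 56.0, 46.0 and 66.3 to 153, 115 and 126. The factor genes Tfeb (-0.43, adjusted p = 0.1253; -0.62 and 0.03942 without KO replicate 2) and Tfe3 (0.09, adjusted p = 0.1151) did not pass.

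The window of Gla, at chrX:134600956-134601255 on the minus strand, is shown for its 2 copies of the 8-base palindrome TCACGTGA read by TFEB, which contains the shorter E-box CACGTG and stands in 1.95% of windows of tested genes and 1.01% of all windows.
Gla: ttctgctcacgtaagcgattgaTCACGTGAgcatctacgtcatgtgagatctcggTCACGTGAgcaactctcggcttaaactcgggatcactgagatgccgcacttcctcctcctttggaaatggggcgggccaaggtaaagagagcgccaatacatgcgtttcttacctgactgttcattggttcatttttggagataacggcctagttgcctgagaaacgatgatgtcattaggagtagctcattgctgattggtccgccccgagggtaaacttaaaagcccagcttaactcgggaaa
Of the 23 matched windows of the lysosomal list, 8.7% held this palindrome and 34.8% the E-box, while 10.1% of windows of tested genes and 7.24% of all 27025 windows held the E-box.

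Of 21 cholesterol synthesis genes, 18 rose and 1 fell (median 0.47), beside 21.4% and 20.5% of all genes. Hmgcs1, an early enzyme under sterol feedback, went from 5377, 5058 and 5872 to 7738, 7773 and 7658, and Lss, which closes the sterol rings, from 3904, 3867 and 4223 to 6316, 6423 and 6755. Tm7sf2, a sterol reductase gene, went from 134, 104 and 195 to 256, 325 and 295. The 1 lower gene, Lbr, is also a lamin B receptor and is counted among the chromosome structure genes as well (2648, 2552 and 2598 to 1825, 1760 and 1882), while Pmvk (0.19, adjusted p = 0.07644) and Fdps (0.42, adjusted p = 0.07269) did not pass. Pmvk passed without WT replicate 1 (0.25, adjusted p = 0.04023) or KO replicate 3 (0.25, adjusted p = 0.04061). Fdps passed without WT replicate 3 (0.53, adjusted p = 0.03991), KO replicate 1 (0.53, adjusted p = 0.04834) or CARM1i replicate 2 (0.42, adjusted p = 0.03628).

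The deletion and the inhibitor were also set against each other in this pathway. Here 6 of the 21 genes differed between KO and CARM1i, beside 23.6% of all genes, and Hmgcs1 was higher with the inhibitor (0.26 lower in KO, adjusted p = 0.0005629). Each group against the same untreated libraries, the list's median was 0.47 for 4-OHT and 0.64 for the inhibitor.

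**Figure D4:**
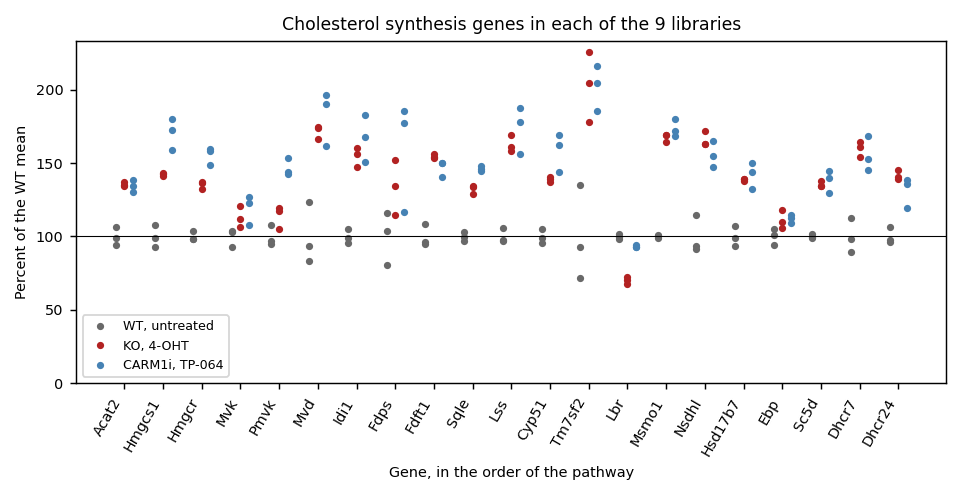
Points give each library's normalized count as a percent of the WT mean for 21 cholesterol synthesis genes in the order of the pathway. Grey is WT, red KO and blue CARM1i. The red points of 18 genes are called higher than the grey ones, and those of Lbr lower.

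Among the 18 genes of sterol control, uptake and export, 11 rose and 4 fell (83.3% called, beside 41.9% of all genes). The exporter genes Abca1 (1083, 1108 and 1119 to 546, 398 and 512) and Abcg1 (65.5, 63.6 and 67.4 to 25.9, 17.1 and 15.3) fell, and Mylip, a ubiquitin ligase gene, fell by 0.49, all 3 known targets of the liver X receptors. Abca1 differed from the inhibitor libraries (1134, 1078 and 800), by -1.04 (adjusted p = 2.111e-06). Lipid droplet coat genes rose, with Plin4 at 215, 217 and 218 against 568, 570 and 587, Plin3 by 0.77 and Plin2 by 0.57, while the fatty acid carrier gene Fabp5 fell by 0.68. Of the 28 genes of fatty acid synthesis and droplets, 15 rose and 3 fell (64.3% called).

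Iron and oxidant defence genes rose in 16 of 23 cases and 2 fell (median 0.32), beside 21.4% and 20.5% of all genes. The ferritin chain gene Fth1 went from 19396, 18887 and 19871 to 36055, 33560 and 36022 and Hmox1, heme oxygenase, from 5978, 5616 and 5957 to 11220, 10404 and 10730. The ferritin gene Ftl1 rose by 0.50. The metallothionein genes Mt1 and Mt2, which bind zinc and are induced by metals and glucocorticoid, rose by 0.83 and 0.88.

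Collagen genes fell in 16 of 20 cases and 1 rose (median -0.53), beside the fall of fibroblast markers given above, of which Col1a1, Col1a2 and Col3a1 are also members. Col1a1 went from 22961, 22692 and 23812 to 12919, 11175 and 12130, Col3a1 from 6105, 6145 and 5658 to 2321, 2562 and 2532 and Col6a3 from 2411, 2349 and 2652 to 1017, 920 and 1002. The basement membrane chains Col4a1 and Col4a2 fell by 0.22 and 0.30. Among the enzymes that modify collagen and the elastic fibre genes, 13 of 29 were lower and 3 higher (median -0.12). That is 55.2% called, beside 41.9% of all genes. The prolyl hydroxylase gene P4ha3 fell from 161, 155 and 217 to 78.9, 72.6 and 56.3.

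Matricellular genes, which modulate how cells bind matrix, were lower in 10 of 16 cases and higher in 4 (87.5% called). Has2, counted in this list, encodes an enzyme that makes hyaluronan and is not itself a matricellular protein gene. Has2 fell from 1065, 959 and 1048 to 576, 568 and 593, and with the inhibitor measured 530, 563 and 640. Postn, periostin, rose from 5136, 5173 and 6408 to 10222, 9545 and 9528, and in the inhibitor libraries measured 5679, 6012 and 5330. Of 19 contractile and cytoskeletal genes 12 were lower and none was higher (63.2% called, beside 41.9% of all genes). Myh10, non-muscle myosin IIB, fell from 11420, 10923 and 11490 to 7138, 6637 and 6669 and Acta2 by 0.18.

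Among matrix metalloproteinases and their inhibitors, 11 of 21 rose and 7 fell (85.7% called, beside 41.9% of all genes). The rises include a run of neighbouring genes on chromosome 9. Mmp3, Mmp1a, Mmp10, Mmp8 and Mmp27 are adjacent among tested genes and all rose at least 2-fold, and Mmp12 (25.8, 21.5 and 23.5 to 80.0, 91.7 and 97.3) and Mmp13 (158, 149 and 173 to 373, 420 and 358) on the same chromosome rose as well. Mmp10, stromelysin 2, went from 798, 652 and 860 to 2234, 2363 and 2349. Mmp8 (9.47, 3.92 and 8.55 to 21.6, 21.2 and 21.9) and Mmp27 rest on few reads. Mmp2 and Mmp14, which sit elsewhere, rose by 0.23 and 0.39, and Mmp9 and the inhibitor gene Timp3 fell by 1.73 and 0.57.

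Signalling genes moved in both directions within each list. Of 22 Wnt genes 3 rose and 8 fell (median -0.04), which is 50% called beside 41.9% of all genes. Dkk2 and the receptor gene Ror2 (669 to 440) fell, while Rspo3, an agonist (375, 341 and 405 to 584, 572 and 585), Wnt4 and Lef1 rose. Of 27 TGF-beta and BMP genes 9 rose and 8 fell (63% called). The ligand gene Bmp4 fell from 45.6, 61.7 and 88.8 to 22.7, 16.1 and 15.3, the antagonist gene Grem1 rose, the activin antagonist gene Fst fell from 1655, 1720 and 1702 to 812, 756 and 738, and the BMP targets Id1 and Id3 fell by 0.35 and 0.31. Of 12 Notch genes 6 rose and 4 fell (83.3% called). The ligands moved apart, with Jag1 at 299, 317 and 368 against 183, 139 and 158 and Dll1 at 87.9, 83.2 and 74.8 against 163, 202 and 146.

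Of 26 growth factors and receptor kinases, 7 rose and 7 fell, a share of 53.8% called near the 41.9% of all genes. Pdgfra, the PDGF receptor of mesenchyme, fell from 37849, 38074 and 39562 to 25125, 23199 and 23650, and Fgfr1 rose from 11719, 11592 and 11830 to 17624, 17777 and 17882. Pdgfra was at 37756, 37015 and 33047 with the inhibitor, and the difference between KO and CARM1i was -0.58 (adjusted p = 2.477e-08). Axon guidance genes were called in 60.6% of 33 cases, 9 higher and 11 lower, again beside 41.9% of all genes. Sema7a, a membrane semaphorin, went from 1688, 1525 and 1630 to 3711, 3320 and 3690.

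The drug 4-OHT is also a ligand of the estrogen receptors, and no group separates that action from the deletion. Esr1 measured 105, 91.0 and 85.5 in untreated and 60.5, 104 and 78.2 in 4-OHT libraries and did not pass (-0.24 ± 0.19). Among 15 genes of glucocorticoid and estrogen receptors and their targets, 6 rose and 4 fell, with a median of 0.00. That is 66.7% called, beside 41.9% of all genes. The glucocorticoid targets Fkbp5 (1797, 1642 and 1680 to 1195, 1143 and 1282), Tsc22d3 and Dusp1 fell, while Sgk1 rose by 0.30.

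Further lists bear on what CARM1 is known to act on, and on general functions of the cell. Of 30 oxidative phosphorylation genes 5 rose and 4 fell, 30% in all, with a median of 0.01, and 29 of them lay between -0.12 and 0.27. Of 21 proteins known as CARM1 substrates or partners, 2 genes rose and 8 fell, 47.6% in all, near the 41.9% of all genes. The median of these 21 was 0.01. The p160 coactivator genes Ncoa1 and Ncoa3 stood at 0.04 and 0.03 and Ep300 at 0.09, none of them called. Pabpc1, a poly(A)-binding substrate, rose by 0.24 ± 0.04, and changes in this list ran from -0.30 to 0.24. Of 12 arginine methyltransferases and their partners 1 rose, Prmt2 (0.22), and 6 fell (58.3% called, beside 41.9% of all genes), a list that holds Carm1. Positional factors, Hox and Tbx genes among them, were called in 36.8% of 19 cases. Of 28 Myc and ribosome biogenesis genes 6 rose and 9 fell (53.6% called). Myc itself did not pass (1461 to 1523), and Mycn fell from 123, 105 and 112 to 36.7, 24.2 and 27.7.

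The share of genes called rose with their level, from 11.6% in the fifth with the lowest mean (10.0 to 57.1 normalized reads) to 62.9% in the fifth with the highest. Of 12468 protein-coding genes 46.3% were called, and of 347 lincRNA genes 17.6%. None of 71 snoRNA genes was higher and 23 were lower, though a poly(A) kit samples such short transcripts poorly. By base composition, 16.1% of genes in the fifth with the least GC were higher and 23.3% lower, against 24.6% and 17.5% in the fifth with the most. By chromosome, the share lower was highest on chromosome 13 (27.2%), which holds most histone genes, and the share called was lowest on chromosome 12 (35.4%).

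Neighbouring genes moved together in 22 runs of at least 3 tested genes with calls of at least 1.5-fold in 1 direction, a description drawn after values were seen. Runs of 14, 17 and 9 genes of the Hist1 cluster, all lower, were the longest, and a further run of 6 there holds 5 histone genes beside another gene. On chromosome 1, a run of 6 holds Aim2, Ifi209, Ifi208 and Ifi207, DNA-binding proteins of the interferon-inducible PYHIN family, which were higher by 1.13, 1.32, 1.23 and 1.90. On chromosome 5 the guanylate-binding protein genes Gbp9, Gbp4 and Gbp6 were higher (Gbp6 from 416, 434 and 475 to 915, 1025 and 995), and on chromosome 11 the GTPase genes Tgtp1, Tgtp2 and Ifi47. Many of these are recent duplicates whose reads may be shared. On chromosome 13 the protease inhibitor genes Serpinb9e, Serpinb9f and Serpinb9g were higher.

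The deletion and the inhibitor were compared directly, and 3436 genes differed between KO and CARM1i (23.6%). Only the KO libraries had 4-OHT, so agent and means of loss cannot be told apart here either. Among genes with a mean of at least 100 whose KO and CARM1i values do not overlap, the largest difference above the inhibitor was that of Acod1 (53.7, 38.1 and 114 in CARM1i; difference 1.73, adjusted p = 0.0002079), followed by Nptx1 (1.43), Crct1 (1.39), Megf10 (1.32), Mmp3 (1.13) and S100a8 (1.07). For Mmp3 the inhibitor libraries, at 2621, 2647 and 4053, overlapped the untreated ones. The largest below were Aspn (-1.71), Dkk2 (-1.52) and 4 histone genes, with Hist1h1b at 3043, 3541 and 3123. Of the 32 replication genes all 32 differed, of the 30 lysosomal genes 29, of the 31 interferon effectors 26 and of the 30 oxidative phosphorylation genes 1.

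Promoter windows were searched on both strands, 1 per gene, for 10503 of the 14560 tested genes. The cell cycle homology region (TTTGAA) stood in 26% of the 589 windows of genes at least 1.5-fold lower, in 13.5% of the 429 of genes at least 1.5-fold higher and in 11.6% of the 5757 of genes not called. The CCAAT box stood in 56.2%, 38.2% and 38.2%. With histone genes left out, 24% and 53.8% of 541 windows of lower genes held them. Over all tested genes the shares were 12.3% and 39.5%, over all windows 18.1% and 37.9%, and over the kinetochore list 51.9% and 74.1% of 27 windows.

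E2F elements stood in 4.92% (TTTCCCGC) and 2.72% (TTTGGCGC) of windows of the lower genes, against 0.699% of the higher for each, 1.89% and 0.903% of genes not called, 2.14% and 0.981% of tested genes and 1.11% and 0.537% of all windows. The interferon element stood in 13.3% of windows of the higher and 7.81% of the lower genes, 6.62% of those not called, 7.16% of tested genes and 8.57% of all windows. In the same order, AP-1 stood in 11%, 4.75%, 4.97%, 5.18% and 7.93%. The E-box stood in 12.8%, 6.11%, 9.05%, 10.1% and 7.24%. The TATA box stood in 13.8% of the higher and 12.6% of the lower genes, 8.13% of the lower without histones, 7.03% of those not called, 7.57% of tested genes and 14.2% of all windows. The sterol element TCACCCCAC was found in 1 of 16 cholesterol gene windows, while 14 of them (87.5%) held a CCAAT box. A match is a string of letters in a window and not a measured site.

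**Figure D5:**
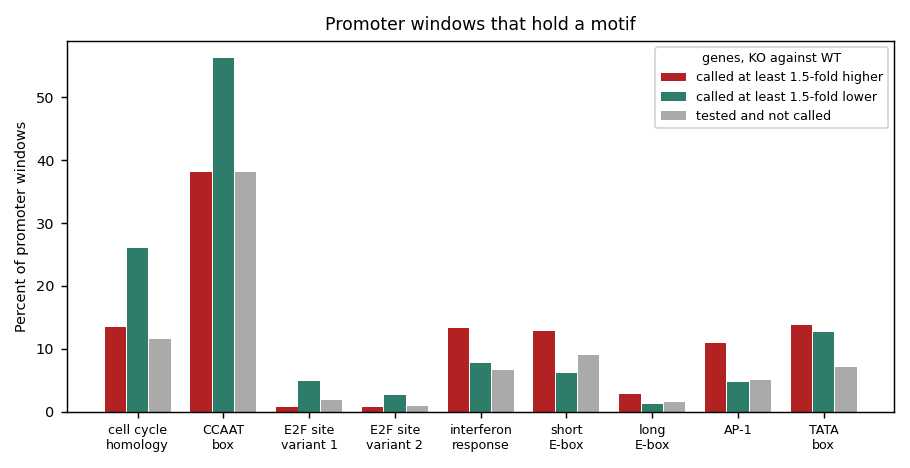
Bars give the percent of 300-base promoter windows that hold a motif on either strand, for genes called at least 1.5-fold higher (red, 429 windows), at least 1.5-fold lower (green, 589) and not called (grey, 5757). The cell cycle homology region and the CCAAT box stand most often in windows of lower genes, and the interferon element, E-box and AP-1 element in those of higher genes.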

How the data were processed

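RNA of 9 libraries was measured with a stranded poly(A) kit, 3 per group. The deposited table holds signal values, that is, gene read counts that the authors divided by a library size factor. The submitters' processing notes name mm10, TopHat2 2.0.10, HTSeq 0.6.0 and DESeq 1.18.0, while the annotation release and strand setting were not given in any of the sources used here. Whole reads were recovered from the value steps within a tolerance of 1e-06 and gave 28657018 to 35842771 reads per library. The step of KO replicate 2 is close to 1, so an automatic test of steps does not settle that column. Of 16428 IDs, 16413 matched a mouse gene without version and 15 did not.

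The log2(value + 1) of all 9 libraries entered 1 fit in limma 3.58.1, run in R 4.3.3 with the intensity trend switched on, and adjusted by Benjamini-Hochberg over the 14560 genes with a mean of at least 10. Fold changes are on that scale, which understates changes of low genes, and errors are SE unless named. Each adjusted p is from this fit unless an alternative is named. Tests were checked on simulated data. edgeR 4.0.16 and DESeq2 1.42.0 on recovered reads, other filters, scalings and pseudocounts, and leaving out libraries were alternatives.

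Named genes were Carm1 and 4 neighbours a side, the 20 largest rises and falls, the 6 largest gains and losses in counts and the 6 largest differences from CARM1i in each direction (mean at least 100, groups not overlapping, no predicted genes), and list members by smallest adjusted p or role. Some further members were chosen after their values were seen. Genes and lists were chosen with earlier results of these data known. Promoter windows came from RefSeq (GRCm38.p6), and the first was used for 2135 genes with several.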

Additional observations from a re-analysis of the deposited data

How the results depend on the processing

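The 6100 calls became 6063 with no filter, 5943 with a mean of at least 50, 6272 after quantile normalization, 6121 at a common total, 6100 and 6121 with pseudocounts of 0.5 and 10, 5493 without the intensity trend, 6150 in edgeR, 5650 in DESeq2, 6390 with the KO and WT libraries alone and 4591 at an adjusted p of 0.01. At a common total, 2836 were higher and 3285 lower. With 1 library left out the calls numbered 5243 to 6464, of which 2663 to 3281 were higher and 2580 to 3183 lower, with 1338 to 1464 of at least 1.5-fold and 510 to 559 of at least 2-fold. With the replicate number as a block there were 5865 calls (2983 higher, 2882 lower, 1408 of at least 1.5-fold). Deviations of same-numbered KO and WT libraries correlated at -0.0124, -0.0113 and -0.0168, and no KO library correlated best with its own number. With 3 libraries a group, this cannot settle whether same-numbered libraries shared a culture or batch. E2f1, not called, changed sign after quantile normalization (0.051) and in 3 of the fits that leave out 1 library, which ran from -0.022 to 0.026. Rn7sk changed sign after quantile normalization (0.033). The medians of the lists of CARM1 substrates, complement, metalloproteinases, growth factors and receptor kinases, glucocorticoid and estrogen receptor genes and oxidative phosphorylation changed sign in at least 1 setting. Genes with few reads have wide errors, and the absence of a call there does not show equal levels. The comparison rests on 3 libraries a group, of unstated independence, and on a table of gene totals in which isoforms and the floxed exons cannot be seen.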
